A study of Mus musculus with 40 samples.

Results

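The genes described here are 39 mouse genes of the type I interferon and antiviral programme, chosen by name from a list of interferon-induced effectors, sensors and regulators, and read in all 40 RNA-seq libraries of the series. All 39 were found among the 21347 genes kept from the deposited table, and 37 passed the filter on low values that left 14701 genes for testing (at least 1 normalised read per M, with M the unit of scaled library size, in at least 3 libraries). The GTPase genes Mx1 and Mx2 did not pass. Oas2, Ifit3 and Ifit3b passed only through co-cultures, the arm where they were high, so their calls are not independent of the filter. The cells were 4T1, an established line from a mammary carcinoma of the BALB/c mouse, and the added cells were splenic T cells of C57Bl6 mice, a different strain. 4T1 cells were seeded at 10000 per cm2 on tissue culture polystyrene that was coated at 250 µg/ml with vitronectin, fibronectin, collagen IV or collagen I, or left uncoated. In co-culture wells T cells at 80000 per cm2 and interleukin 2 at 30 U/ml were then added, and wells of 4T1 alone received the same interleukin 2 without T cells, so both arms carry the cytokine. Total RNA was taken 24 h later. There were 18 co-cultures (4 uncoated, 4 each with fibronectin and collagen IV, 3 each with vitronectin and collagen I) and 22 libraries of 4T1 alone (4 on collagen I, collagen IV and vitronectin, 5 on fibronectin and on uncoated plastic), from 5 experiments, which the labels describe as biological replicates. Floating and attached cells were pooled before RNA was taken.

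Type I interferons signal through a shared receptor to the kinases JAK1 and TYK2 and to ISGF3, a complex of transcription factors that includes STAT2 and IRF9. ISGF3 binds interferon-stimulated response elements in the promoters of many genes whose products sense viral RNA and DNA, block translation or entry, degrade RNA, and tag proteins with the ubiquitin-like modifier ISG15. Many of these genes also respond to interferon gamma, a T cell cytokine, and T cells express many of them themselves. Since a co-culture library mixes the RNA of both cell types, the level of a gene cannot be assigned to either cell, and fewer cells of a type cannot be told apart from less RNA per cell.

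The promoters below are shown because ISGF3 acts at such elements, and because they belong to members whose levels in co-culture differed in direction from those in 4T1 alone. RefSeq windows (GRCm38.p6, 250 bases before to 50 after the gene start, 5′ to 3′ on the gene's strand) were matched by symbol for 29 of the 39 members; Usp18, Oas2, Mx1, Mx2, Dhx58, Zbp1, Parp9, Parp14, Ifi27 and Rtp4 were not matched. The element searched was GAAANNGAAA on both strands, printed in capitals, where overlapping matches run together. Ifit1, Ifit3, Ddx60 and Samd9l were higher in co-culture in experiment 4, Isg15 and Bst2 were lower there, and Rsad2 did not pass the test.
Ifit1 (chr19:34640639-34640938, + strand): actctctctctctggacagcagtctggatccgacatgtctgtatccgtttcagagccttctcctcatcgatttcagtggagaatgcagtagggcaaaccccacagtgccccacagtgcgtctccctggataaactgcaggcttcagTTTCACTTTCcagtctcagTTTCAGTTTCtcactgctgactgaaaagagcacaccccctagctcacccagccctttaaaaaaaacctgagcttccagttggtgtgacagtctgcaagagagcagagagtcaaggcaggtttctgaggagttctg
Ifit3 (chr19:34583279-34583578, + strand): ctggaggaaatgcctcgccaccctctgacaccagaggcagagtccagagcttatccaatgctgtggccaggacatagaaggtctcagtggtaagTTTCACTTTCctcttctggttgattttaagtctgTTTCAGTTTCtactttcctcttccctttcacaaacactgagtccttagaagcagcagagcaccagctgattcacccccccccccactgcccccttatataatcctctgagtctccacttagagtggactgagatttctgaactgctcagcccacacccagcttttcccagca
Ddx60 (chr8:61927837-61928136, + strand): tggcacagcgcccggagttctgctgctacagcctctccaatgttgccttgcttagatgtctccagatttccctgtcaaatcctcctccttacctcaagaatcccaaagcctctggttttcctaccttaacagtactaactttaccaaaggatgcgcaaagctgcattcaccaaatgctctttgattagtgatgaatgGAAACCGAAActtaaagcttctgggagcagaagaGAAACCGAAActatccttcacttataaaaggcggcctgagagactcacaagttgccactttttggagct
Isg15 (chr4:156200769-156201068, − strand): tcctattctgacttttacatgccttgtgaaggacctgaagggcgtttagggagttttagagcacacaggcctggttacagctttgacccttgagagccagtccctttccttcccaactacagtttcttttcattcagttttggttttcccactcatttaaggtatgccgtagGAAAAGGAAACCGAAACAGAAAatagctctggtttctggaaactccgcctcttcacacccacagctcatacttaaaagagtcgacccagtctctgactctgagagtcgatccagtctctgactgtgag
Bst2 (chr8:71537423-71537722, − strand): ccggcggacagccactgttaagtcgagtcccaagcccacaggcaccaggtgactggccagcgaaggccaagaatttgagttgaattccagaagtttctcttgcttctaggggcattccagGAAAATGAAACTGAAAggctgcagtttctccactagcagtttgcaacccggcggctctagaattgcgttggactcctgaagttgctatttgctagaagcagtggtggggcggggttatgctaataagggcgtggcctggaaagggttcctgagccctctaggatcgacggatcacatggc
Rsad2 (chr12:26456403-26456702, − strand): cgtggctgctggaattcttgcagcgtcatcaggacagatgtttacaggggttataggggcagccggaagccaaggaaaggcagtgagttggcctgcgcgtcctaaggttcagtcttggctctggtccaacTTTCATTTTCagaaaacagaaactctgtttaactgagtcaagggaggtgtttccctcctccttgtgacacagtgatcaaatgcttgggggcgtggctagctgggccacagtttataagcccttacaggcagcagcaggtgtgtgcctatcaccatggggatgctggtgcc
Samd9l (chr6:3399522-3399821, − strand): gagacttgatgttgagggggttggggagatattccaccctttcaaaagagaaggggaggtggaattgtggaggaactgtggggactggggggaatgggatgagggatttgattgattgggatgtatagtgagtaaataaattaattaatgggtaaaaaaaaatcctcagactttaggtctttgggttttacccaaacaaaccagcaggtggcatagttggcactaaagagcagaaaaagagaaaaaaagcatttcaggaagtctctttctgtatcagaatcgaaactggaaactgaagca

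The element was in the window of 15 of the 29 members (51.7%), against 3.99% of all 27025 genes with a window. The Ifit1 and Ifit3 windows each held 2 matches on the opposite strand, and the Isg15 window held 3 overlapping ones whose first base lies 78 bases before the gene start. Among members grouped by their T cell response in experiment 4, it was in 7 of 15 that were higher, 3 of 4 that were lower and 5 of 10 that did not pass, so members of every class carried it. The gamma-activated type of element, TTCNNNGAA, on both strands, was in 6 of 29 members (20.7%) and in 9.55% of all genes. In the Bst2 window its match overlaps the printed element. A match describes these letters only, and no match says nothing about binding outside the window.

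The co-cultures held very different amounts of T cell RNA. The summed level of 25 T cell markers (all 25 present, among them Cd3e, Cd4, Cd8a and Trac) in co-cultures averaged 437.8 per M in experiment 1, 78.1 in experiment 2, 49.7 in the single co-culture of experiment 3, 2514.9 in experiment 4 and 51.3 in experiment 5. In 4T1 alone it lay between 12.8 and 21.5 per M in all 22 libraries. Within experiment 4 the collagen IV co-culture stood at 5175.3 per M and the other 4 between 1710.3 and 2052.3. There the 21 carcinoma epithelial markers summed to 2778.8 per M in co-culture and 3830.2 in 4T1 alone, and all 21 were lower by limma, while 9 B cell markers summed to 68.9 and 0.11 and 8 erythroid and platelet markers to 23.9 and 1.29. Library tags in the labels, whose meaning is not stated, also part the arms of experiment 4: none or R2 in the co-cultures, R3 in all 5 libraries of 4T1 alone. The tag and the T cells cannot be told apart in that experiment. In experiments 2 and 5 the tags of co-culture and 4T1 alone also differ in every pair but the uncoated one. The part of these values in the results below was not tested. Total reads were 18.95 to 47.73 M in 39 libraries and 239.13 M in the collagen IV co-culture of experiment 5.

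**Figure D1:**
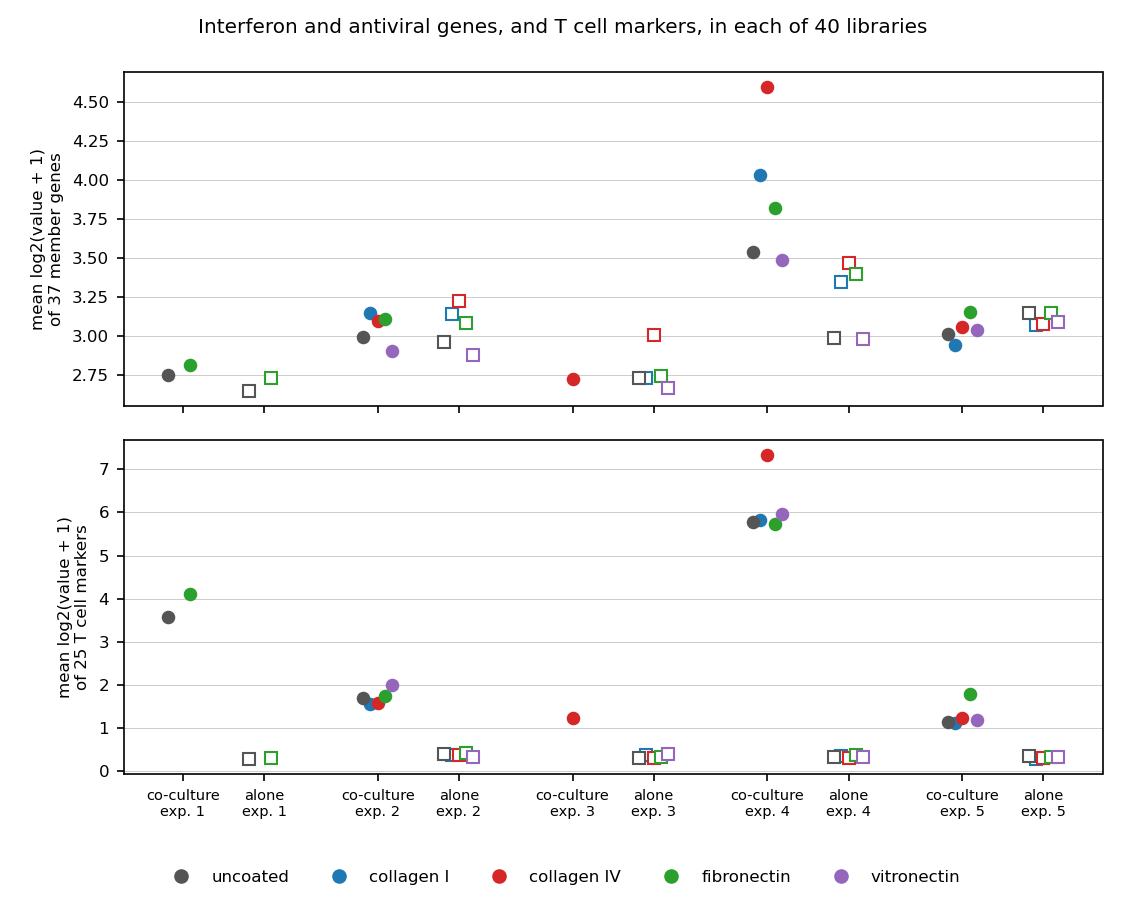
Mean log2(value + 1) of the 37 tested members (top) and of 25 T cell markers (bottom) in each library, with co-cultures (filled circles) left of 4T1 alone (open squares) in each experiment and colours for the substrate. The co-cultures of experiment 4 average 3.89 for the members, against 3.24 in 4T1 alone of that experiment, and the collagen IV well is the highest of each panel at 4.59 and 7.33.

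In 4T1 alone the members spanned a wide range of levels. Per kilobase of exon, the highest were the membrane proteins Ifitm3, which blocks viral entry, at 95.1 ± 11 and Bst2, the tether of budding virions also called tetherin, at 41.4 ± 7.22 per M per kb (mean ± SD, n = 22). Ifi27 and Trim25, a ubiquitin ligase that acts on RIG-I, followed at 20.4 and 18.2, and the modifier gene Isg15 stood at 10.2. The lowest were Oas2, at 0.0247 per M per kb, Mx2 at 0.0339 and Mx1 at 0.00632, the last with 0 reads in 11 of 22 libraries.

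Members also differed between experiments with no T cells present. In 4T1 alone, 33 of 37 members differed over the 5 experiments (limma F test, Benjamini-Hochberg adjusted p under 0.05 over all genes), against 61.4% of all genes. Experiment 4 had the highest mean for 24 members, experiment 5 for 7 and experiment 2 for 6, and experiment 1 the lowest for 26, experiment 3 for 10 and experiment 5 for 1. The ratio of the highest to the lowest experiment mean had a median of 1.79 and reached 4.48 for Ifi44, with 17 members at 2 or more. Rsad2, the gene of the antiviral enzyme viperin, averaged 0.697 ± 0.214 per M in experiment 1 (SD, n = 2), 1.86 ± 0.622 in experiment 2, 0.816 ± 0.17 in experiment 3, 2.5 ± 1.12 in experiment 4 and 1.86 ± 0.352 in experiment 5 (SD, n = 5 each). Oasl1, an OAS-like gene without synthetase activity, averaged 6.33, 11.6, 7.06, 12.8 and 11.5 per M in the same order.

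**Figure D2:**
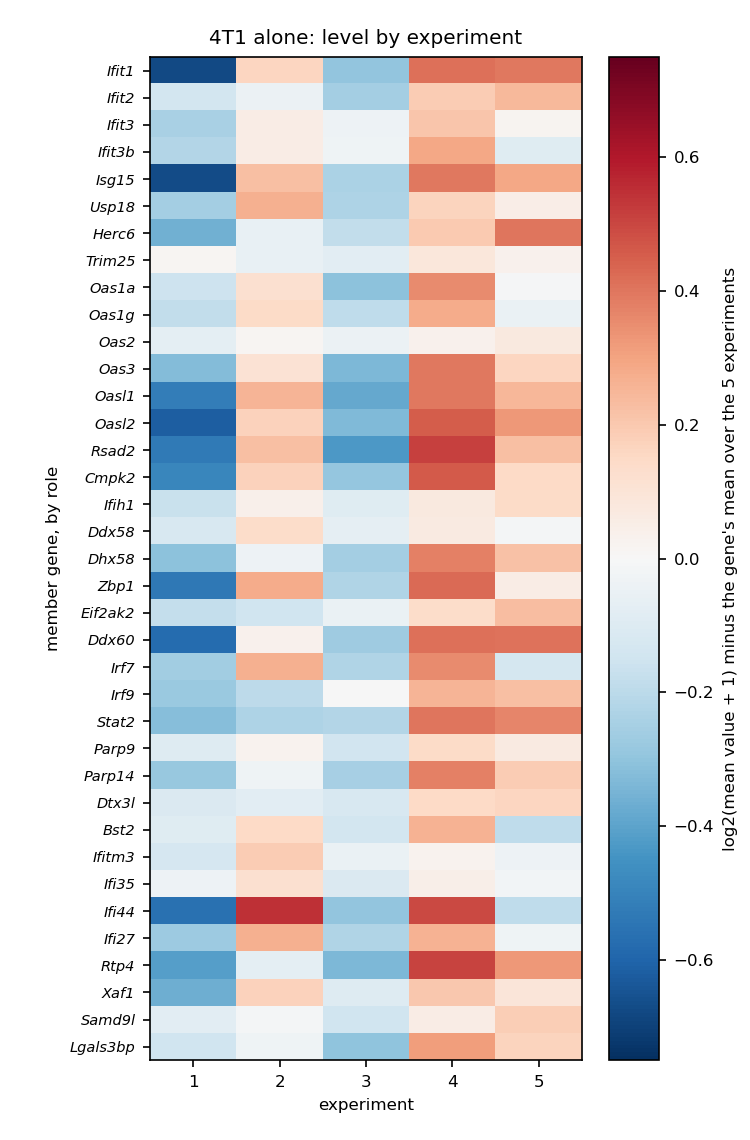
Level of each tested member in 4T1 alone by experiment, as log2(mean value + 1) minus the gene's mean over the 5 experiments (colour, blue below and red above), with genes down the page by role. Experiment 4 is the highest for 24 members and experiment 1 the lowest for 26.

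Averaged over the 5 substrates, 7 of 37 members were higher in co-culture and 0 lower (limma, adjusted p under 0.05, 18 co-cultures against 22 libraries of 4T1 alone), where 13.1% of all genes were higher and 12.2% lower (25.2% in either direction). Leaving out 1 library moved the count of 7 to between 0 and 14, and 26 of the 40 libraries moved it by over 1.5 times. It was 0 without the collagen I or the vitronectin co-culture of experiment 4. The median log2 difference was 0.134 for the members and -0.00997 for all genes; with 1 added to each value before taking logs, differences of low genes are understated. The 7 were Ifit3 among the IFIT genes, the ISG15 ligase gene Herc6, Oas2, the RNA sensor gene Ddx58 (RIG-I), the Z-nucleic acid sensor gene Zbp1, the interferon gene regulator Irf7 and Samd9l, an interferon-induced growth and translation inhibitor. Of these, Ifit3 and Oas2 passed the low-value filter only through co-cultures. Zbp1 lay between 0.983 and 58.6 per M (median 1.69) in co-cultures and between 0.364 and 2.79 (median 1.07) in 4T1 alone. It differed by 1.01 ± 0.33 on the log2 scale (SE, adjusted p = 0.0282) and was higher in 14 of 18 pairs of wells from 1 experiment and substrate. Irf7 lay between 0.896 and 31.5 per M (median 2) in co-cultures and between 0.751 and 2.71 (median 1.34) in 4T1 alone, a difference of 0.71 ± 0.27 (adjusted p = 0.0485). The arms overlapped for both, and the highest values came from experiment 4.

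Differences of the other 5 were 0.71 ± 0.25 for Ifit3 (adjusted p = 0.0402), 0.61 ± 0.19 for Samd9l (0.024), 0.56 ± 0.20 for Oas2 (0.0439), 0.36 ± 0.13 for Herc6 (0.0442) and 0.21 ± 0.08 for Ddx58 (0.0445), all by limma. Of the genes closest to the threshold, Irf9, the DNA-binding subunit of ISGF3, differed by 0.59 ± 0.23 (0.0548) and Parp14, an ADP-ribosyltransferase, by 0.44 ± 0.17 (0.0576). Ifit2, which lies in the same gene cluster as Ifit3, differed by 0.34 ± 0.14 (0.0617).

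Quantile normalisation moved the split to 4 higher and 3 lower, the lower ones being Oasl1, Isg15 and Oas1g. Of all 14701 genes it called 1504 higher and 3076 lower. With the experiment as a block 17 members passed, 13 higher and 4 lower. Of all genes 22.4% were higher and 23.4% lower in that fit (45.8% in either direction). The added ones that were higher were Ifit2, Ifit3b, Irf9, Stat2, Parp14 and Dtx3l, and 4 were lower: Isg15 by -0.35 ± 0.07 (adjusted p = 0.000698), Oasl1 by -0.37 ± 0.08 (0.000752), Bst2 by -0.18 ± 0.04 (0.00219) and Ifitm3 by -0.15 ± 0.04 (0.00848). Without experiment 4, limma called 0 members, and the share of all genes in that fit is not given here. With the block and without experiment 4, limma called 3 members, all lower. Of all genes 4.69% were lower and 5.75% higher in that fit (10.4% in either direction). The 3 were Isg15 by -0.35 ± 0.07 (adjusted p = 0.00391), Oasl1 by -0.27 ± 0.08 (0.03) and the leucine-zipper gene Ifi35 by -0.10 ± 0.03 (0.0461). All fits averaged over substrates count wells of the same experiment as replicates, though such wells share a T cell preparation. The p-values with the block therefore do not measure the spread between T cell preparations.

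Within experiment 4, 21 members were higher in co-culture and 4 lower, and 12 did not pass (limma with terms for experiment, substrate and T cells in each experiment, 5 pairs). Of all genes 32.4% were higher and 32% lower there, 64.3% in either direction. Wells of the same experiment share the T cell preparation and are not independent replicates of it. The p-values within an experiment therefore measure the spread between wells, not between T cell preparations. The member median was 0.57 and that of all genes -0.0107. For 17 members each co-culture lay above each library of 4T1 alone, which held for 23.6% of all genes, and for 0 each lay below, which held for 18.3%. Without the collagen IV co-culture of experiment 4, 20 were higher and 4 lower. Scaled to the carcinoma markers, which moves the median of all genes to 0.51 and its split to 12173 higher and 55 lower, 33 members were higher and 0 lower, with a member median of 1.13. After quantile normalisation, which moves the median of all genes to -0.16, 19 members were higher and 9 lower, where 3452 of all 14701 genes were higher and 7670 lower.

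**Figure D3:**
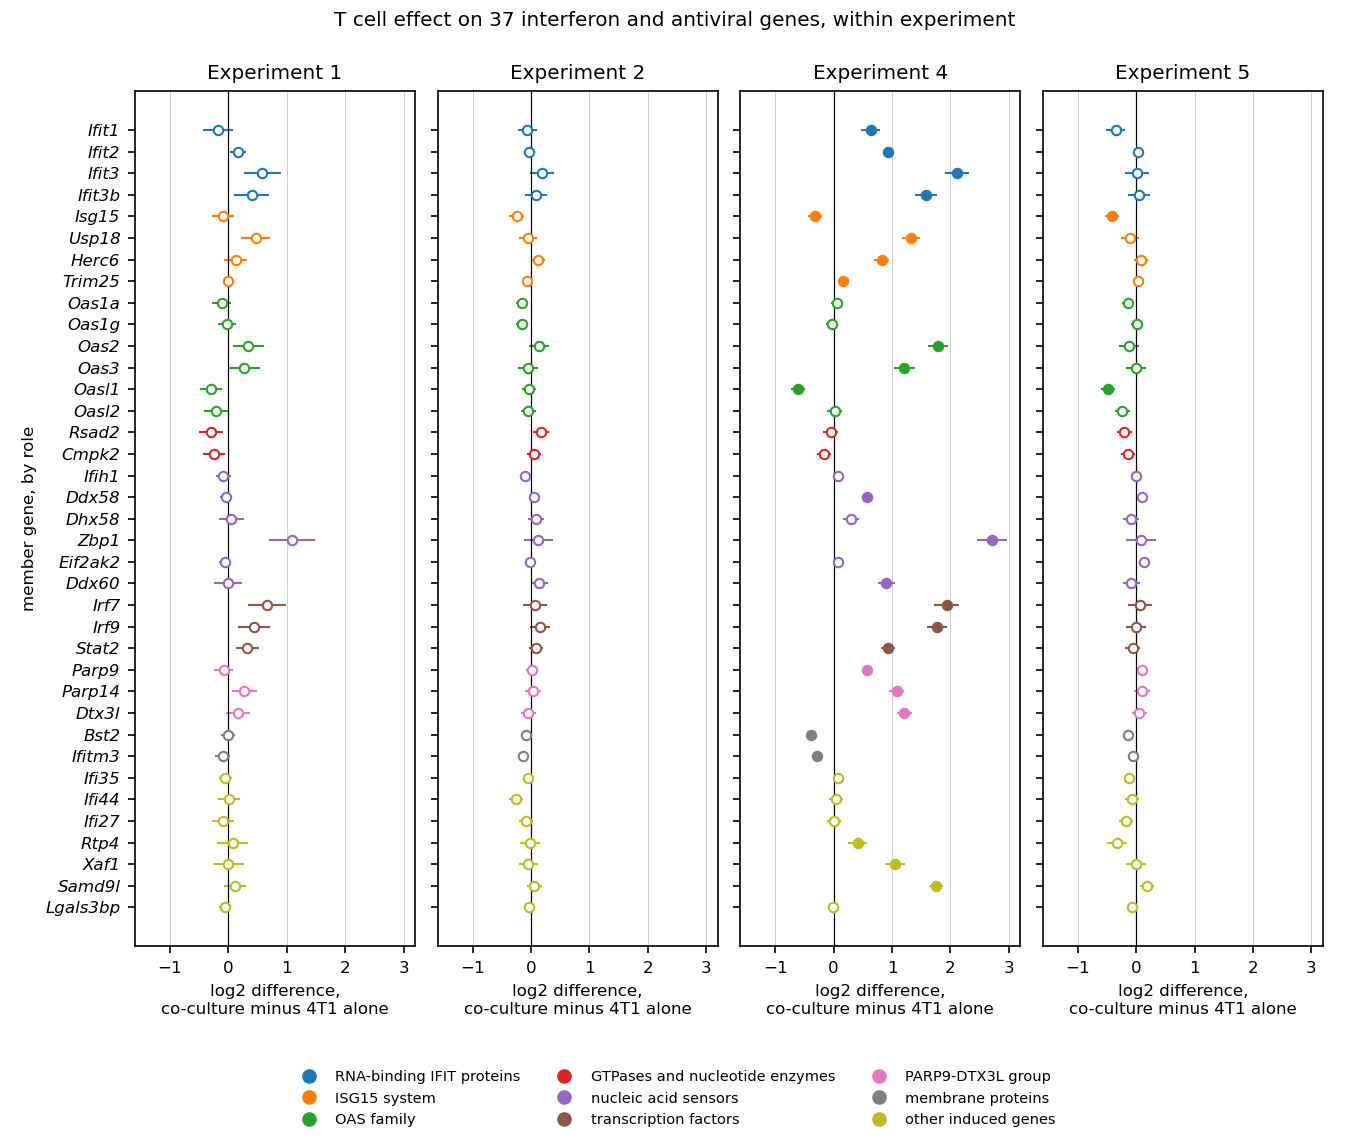
Log2 difference, co-culture minus 4T1 alone, of each tested member within experiments 1, 2, 4 and 5, with its SE as a bar, from limma. Filled points passed an adjusted p of 0.05, 25 in experiment 4, 2 in experiment 5 and 0 in experiments 1 and 2.

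The 3 transcription factor genes of the list were all higher in experiment 4. Irf7 had 6.68, 12, 31.5, 8.16 and 6.68 per M in co-culture on uncoated plastic, collagen I, collagen IV, fibronectin and vitronectin, against 1.62, 2.33, 2.71, 2.29 and 1.6 in 4T1 alone. Irf9 had 19.6, 32.5, 74.9, 25.9 and 20.2 per M in co-culture, against 7.66, 10.3, 9.12, 7.58 and 6.56 in 4T1 alone, in the same order of substrates. Every co-culture exceeded every library of 4T1 alone for both genes, by 1.94 ± 0.21 for Irf7 (adjusted p = 1.47e-09) and 1.77 ± 0.17 for Irf9 (1.13e-10). Stat2, a subunit of ISGF3, differed by 0.93 ± 0.13 (1.13e-07). Exons of Irf7 and the neighbouring gene Phrf1 share 45 bases on opposite strands, and the kit does not mark the strand. Those of Irf9 and Rnf31 share 123 bases on the same strand.

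All 4 IFIT genes, whose products bind viral RNA and block its translation, were higher. Ifit3 had 3.4, 8.69, 18.6, 5.39 and 3.55 per M in co-culture, against 0.434, 0.8, 1.18, 0.972 and 0.419 in 4T1 alone (uncoated, collagen I, collagen IV, fibronectin, vitronectin), with no overlap and a difference of 2.12 ± 0.20 (limma adjusted p = 1.13e-10). Ifit2 differed by 0.93 ± 0.09 (4.98e-11) and Ifit1 by 0.63 ± 0.16 (0.0011), the last with overlapping arms. Ifit3b differed by 1.58 ± 0.19 (9.12e-09), but it is a near-identical copy of Ifit3, and how reads were shared between them is uncertain. Ifit3 and Ifit3b passed the low-value filter only through co-cultures.

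Of the ISG15 system, 3 genes were higher and the modifier itself was lower. Usp18, which removes ISG15 and restrains the interferon receptor, had 2.38, 3.25, 8.93, 3.48 and 2.16 per M in co-culture, against 0.395, 0.9, 0.986, 1.28 and 0.686 in 4T1 alone, a difference of 1.33 ± 0.15 (limma adjusted p = 5.8e-09). Herc6, the ISG15 ligase of mice, differed by 0.82 ± 0.12 (7.91e-07) and Trim25 by 0.17 ± 0.04 (0.00115). Isg15 had 5.84, 9.71, 9.71, 7.16 and 4.77 per M in co-culture, against 7.27, 10.2, 13.2, 10 and 6.79 in 4T1 alone. The arms overlapped, but each co-culture was below its pair, and the difference was -0.32 ± 0.12 (0.021).

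Of the OAS genes 2 were higher, 1 lower and 3 not past the threshold. Oas2 had 1.8, 3.62, 7.94, 1.74 and 1.75 per M in co-culture, against 0.0395, 0.167, 0.247, 0.188 and 0 in 4T1 alone, and differed by 1.78 ± 0.17 (limma adjusted p = 6.56e-11). It reached the filter's level of 1 per M in these co-cultures and in no other library, so this call is not independent of the filter. Oas3, one of the synthetases that activate RNase L, differed by 1.21 ± 0.17 (2.85e-07), whereas Oas1a at 0.05 ± 0.10 (0.688), Oas1g at -0.03 ± 0.10 (0.803) and Oasl2 at 0.02 ± 0.13 (0.913) did not pass. Oas1a and Oas1g are close copies and their reads could be split. Oasl1, which restrains Irf7 translation in mice, was lower, with 5.89, 9.79, 10.6, 8.03 and 6.07 per M in co-culture, against 8.97, 13.7, 17.4, 13.2 and 10.8 in 4T1 alone, a difference of -0.61 ± 0.12 (4.24e-05) with each co-culture below its pair.

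**Figure D4:**
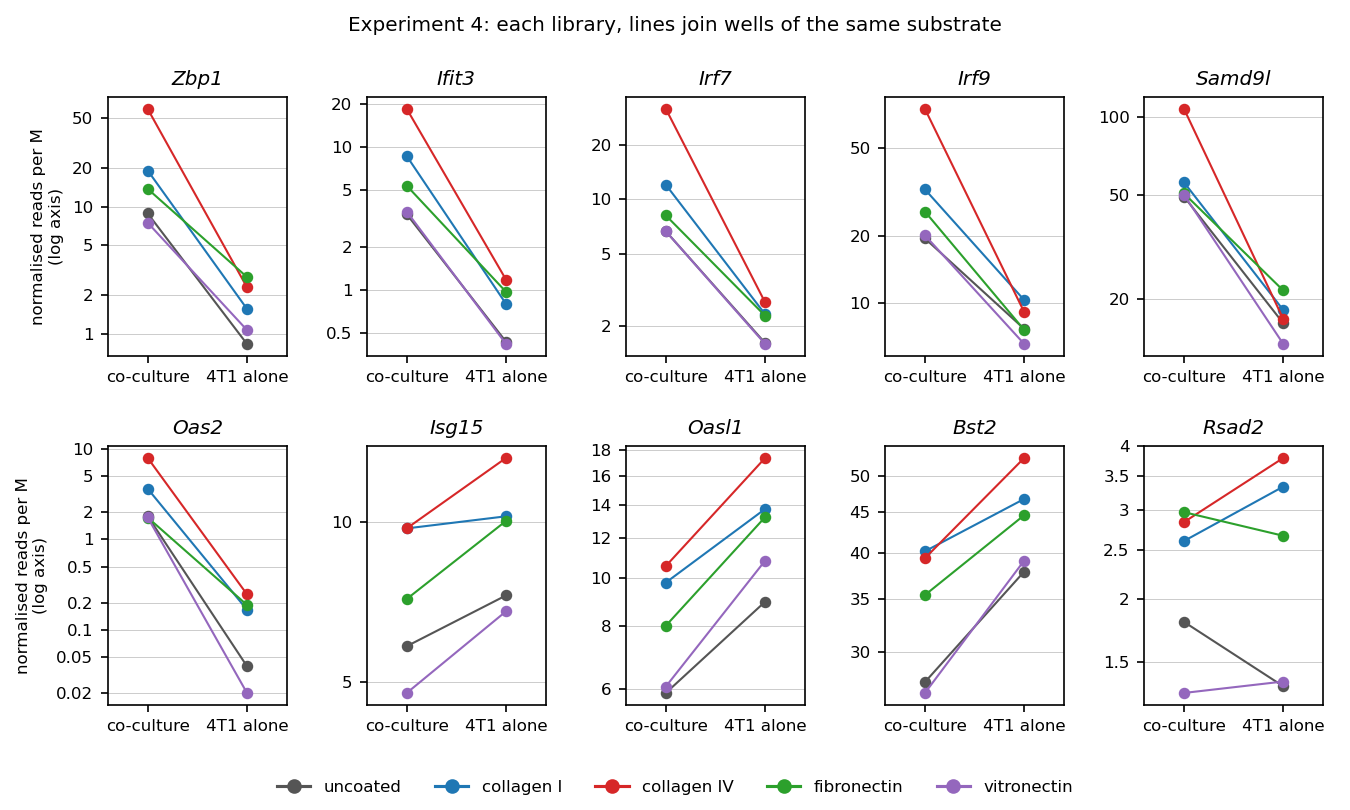
Normalised reads per M (log axis, a different range in each panel) of 10 members in experiment 4, co-culture left of 4T1 alone, with lines joining wells of the same substrate. All 5 lines are higher in co-culture for Zbp1, Ifit3, Irf7, Irf9, Samd9l and Oas2 and lower for Isg15, Oasl1 and Bst2; Oas2 on vitronectin alone is at 0 and drawn at 0.02.

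Among sensors, Zbp1 stood at 8.83, 19.2, 58.6, 13.8 and 7.46 per M in co-culture, against 0.829, 1.57, 2.32, 2.79 and 1.07 in 4T1 alone, a difference of 2.71 ± 0.25 (limma adjusted p = 5.17e-11). Ddx58 differed by 0.57 ± 0.06 (1.56e-09) and the helicase gene Ddx60 by 0.90 ± 0.15 (3.15e-06). The RNA sensor MDA5 gene Ifih1 at 0.08 ± 0.08 (0.352), the regulator LGP2 gene Dhx58 at 0.30 ± 0.14 (0.0506) and the kinase PKR gene Eif2ak2 at 0.07 ± 0.06 (0.312) did not pass.

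The PARP9-DTX3L group was higher throughout. It holds Parp9 and Dtx3l, whose products form a ubiquitin ligase complex that supports interferon signalling, and also Parp14. Dtx3l had 48.1, 64, 135, 56.3 and 49 per M in co-culture, against 25.1, 26.2, 29.6, 32.5 and 24.9 in 4T1 alone, a difference of 1.21 ± 0.13 (limma adjusted p = 1.06e-09). Parp14 differed by 1.08 ± 0.13 (2.52e-08) and Parp9 by 0.58 ± 0.10 (7.68e-06). Parp9 and Dtx3l share 458 exon bases on opposite strands, so their reads cannot be wholly told apart.

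Both membrane protein genes were lower. Bst2 had 27.5, 40.2, 39.4, 35.4 and 26.6 per M in co-culture, against 37.9, 46.8, 52.7, 44.6 and 39.1 in 4T1 alone, a difference of -0.39 ± 0.08 (limma adjusted p = 5.46e-05). Ifitm3 had 53.4, 60.8, 43.8, 57.1 and 50.3 per M in co-culture, against 58.6, 65.2, 75.2, 66.8 and 57.6 in 4T1 alone, a difference of -0.28 ± 0.08 (0.00282). Each co-culture was below its pair for both genes, though the arms overlapped. Scaled to the carcinoma markers the direction of Isg15 (0.19, 0.239), Bst2 (0.17, 0.203) and Ifitm3 (0.28, 0.0186) turned and Oasl1 (-0.09, 0.569) no longer passed. Per kilobase these 4 genes were at 4.92 to 95.4 per M per kb in 4T1 alone of experiment 4 (median 30.8), the 21 higher members at 0.0288 to 19.2 (median 1.48), and the 12 that did not pass at 0.342 to 23.7 (median 2.24).

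Of the remaining induced genes, Samd9l was at 49.5, 56.1, 107, 50.9 and 50.3 per M in co-culture, against 16.2, 18.2, 16.8, 21.6 and 13.5 in 4T1 alone, a difference of 1.75 ± 0.12 (limma adjusted p = 4.46e-14). Xaf1, which antagonises the apoptosis inhibitor XIAP, differed by 1.06 ± 0.17 (2.2e-06), and Rtp4 by 0.41 ± 0.17 (0.0327). Without the collagen IV co-culture Rtp4 differed by 0.19 (adjusted p = 0.252). Ifi35, Ifi44, Ifi27 and Lgals3bp did not pass, with differences of 0.08, 0.04, 0.00166 and -0.00606. Rsad2 at -0.05 ± 0.13 (0.747) and its neighbour Cmpk2, a mitochondrial nucleotide kinase gene, at -0.16 ± 0.12 (0.23) did not pass either. Mx1 averaged 0.61 per M in co-culture and 0.0139 in 4T1 alone of experiment 4, and Mx2 0.63 and 0.126; each co-culture was above each library of 4T1 alone, and neither gene was tested.

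The collagen IV co-culture of experiment 4 was the highest of its 5 co-cultures for 31 of 37 members, the collagen I one for 4 and the fibronectin one for 2. In 4T1 alone of that experiment, collagen IV was the highest for 20, fibronectin for 12 and collagen I for 5. These counts were not taken over all genes, so whether they are particular to the members was not tested. The collagen IV co-culture was also the one with the most T cell marker RNA, and its mean carcinoma marker level was the lowest of the 5 (5.7 on the log2 scale, against 6.06 to 6.26).

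In experiment 1, with 2 pairs, limma called 0 members against 3.17% of all genes, 1 passed an unadjusted p of 0.05, and edgeR called 1, Zbp1. Zbp1 had 1.34 and 2.79 per M in co-culture on uncoated plastic and fibronectin, against 0.364 and 0.432 in 4T1 alone, a difference of 1.09 (limma adjusted p = 0.244). Irf7 had 2.08 and 2.34 against 1.03 and 1.02 per M, and Ifit3 0.988 and 0.872 against 0.303 and 0.273, in the same order. Each co-culture lay above each library of 4T1 alone for these 3 genes, as for 12 of 37 members and 18.7% of all genes, and below for 8 members and 17.9% of all genes. In experiment 2, limma called 0 members against 1.35% of all genes, with 1 at an unadjusted p under 0.05, and edgeR called 0. Of the T cell markers, 22 of 25 were higher there by limma. In the single pair of experiment 3, on collagen IV, 3 members were higher in co-culture and 34 lower, with a median of -0.24. A single pair has no replicate check, its tags differ (R3 in co-culture, R2 in 4T1 alone), and the share of all genes is not given. Its library of 4T1 alone had the highest mean log2 level of the members in that experiment (3.01, against 2.67 to 2.75). The co-culture, at 2.73, lay within the range of the other libraries of 4T1 alone.

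In experiment 5, 2 members were lower and 0 higher by limma and by edgeR, against 1.82% of all genes lower and 2.55% higher (4.37% in either direction). Scaled to the carcinoma markers, where 706 genes were higher and 14 lower and the median of all genes was 0.17, no member was called. Isg15 had 6.52, 5.59, 6.69, 6.27 and 6.48 per M in co-culture, against 9.88, 7.85, 8.68, 8.45 and 8.96 in 4T1 alone (uncoated, collagen I, collagen IV, fibronectin, vitronectin), a difference of -0.42 (limma adjusted p = 0.046). Oasl1 had 7.99, 5.97, 9.02, 8.58 and 8.49 per M in co-culture, against 12.5, 10.9, 11.4, 10.3 and 12.4 in 4T1 alone, a difference of -0.48 (0.0189). In every pair of this experiment but the uncoated one the library tags differ, so tag and T cells cannot be told apart there. The arms did not overlap for either gene. For Rtp4 they did not overlap either, with 3.5 to 4.58 per M in co-culture and 4.8 to 5.85 in 4T1 alone, but the difference of -0.33 did not pass (0.253). Each co-culture lay below each library of 4T1 alone for 3 of 37 members and 1.56% of all genes. In the pairs of all experiments, Isg15, Oasl1 and Ifitm3 were higher in co-culture in 2 of 18 each. Oas1a and Oas1g were higher in 3 each, and Bst2, Ifi35, Ifi27 and Lgals3bp in 4 each. The share of all genes with so few higher pairs is not given here.

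The difference between experiments was tested by limma against the spread between wells, so the test does not measure how T cell preparations vary. The T cell effect in experiment 4 minus that in experiment 5 passed for 20 of 37 members, all 20 larger in experiment 4, against 23.8% of all genes larger and 21.6% smaller (45.3% in either direction). These were the 21 members that were higher in experiment 4 other than Trim25. For experiment 2 minus experiment 5 limma called 0 members against 0.034% of all genes, with 1 at an unadjusted p under 0.05, and edgeR called 0. Over all 5 experiments the T cell effect differed for 21 members by the F test (45.1% of all genes), and without experiment 4 for 1, Zbp1.

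Genes up and down the pathway were read from lists that share no gene with the 39. In experiment 4 limma called 5 of 6 interferon receptor genes higher and 1 lower, 9 of 10 kinases and factors higher and 1 lower, 7 of 11 sensors and adaptors higher and 1 lower, and 17 of 24 other antiviral effectors higher and 3 lower, where 32.4% of all genes were higher and 32% lower. Uba7, the activating enzyme of ISG15, differed by 1.65 ± 0.19 (limma adjusted p = 5.88e-09) in experiment 4 and by 0.05 ± 0.19 (0.91) in experiment 5. Of the interferon gamma response list 19 of 20 were higher in experiment 4, with a median of 2.24, against 2 in experiment 1, 0 in experiment 2 and 1 in experiment 5, with medians of 0.67, 0.11 and 0.32. In experiment 1, where 3.16% of all genes were higher, limma also called 1 receptor gene, 2 sensors and adaptors and 5 other effectors, all higher, and 0 kinases and factors. In experiment 2 no gene of these 5 lists was called, and in experiment 5 none but that 1. Of 21 interferon genes looked up, 2 were in the table and neither was tested: Ifng in experiment 4 averaged 0.3 per M in co-culture, from 50 reads in all, and had 0 reads in 4T1 alone, and Ifnz averaged 0.192 and 0.135 per M. The other interferon genes are not analysed here.

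Medians and counts of higher members compare coats with uncoated wells of the same experiment. The limma and edgeR calls compare group means with no term for experiment, unless the block is named. With the experiment as a block, limma and edgeR called 0 members for each coat in 4T1 alone and in co-culture. In 4T1 alone limma called 0 of 37 members for each of the 4 coats, against 0.0952% of all genes for collagen I, 0.0068% for collagen IV and 0% for fibronectin and vitronectin, and edgeR called 0. At an unadjusted p under 0.05 there were 5 members for collagen IV, all higher, 1 for collagen I and 0 for the others. The F test over the 5 substrates called 0 members, against 0.252% of all genes. With the experiment as a block it called 1, Oas1a (adjusted p = 0.0466), against 2.69%. Oas1a had 4.74, 4.04, 7.45 and 3.47 per M on collagen IV, against 3.65, 2.49, 3.55 and 3.84 on uncoated plastic, in experiments 2, 3, 4 and 5.

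Averaged over 4 experiments, 37 of 37 were higher on collagen IV than on uncoated plastic in 4T1 alone, with a median of 0.22 and a range of 0.04 to 0.51, where 51.9% of all genes were higher and the median was 0.00421. By experiment, 35 of 37 were higher in experiment 2, 34 in experiment 3, 37 in experiment 4 and 13 in experiment 5, where the median was -0.07. The library tags differ between the collagen IV and the uncoated library in experiments 2 (none and R2), 3 and 5 (R2 and R3), where tag and coat cannot be told apart, and are the same (R3) in experiment 4. For 13 members, collagen IV was higher in each of the 4 experiments, against 10.1% of all genes, and for 0 lower, against 9.87%. The 13 were Ifit2, Ifit3, Usp18, Trim25, Ifih1, Ddx58, Eif2ak2, Ddx60, Irf9, Stat2, Bst2, Ifi35 and Ifi44. Bst2 had 45.1, 43.1, 52.7 and 36.3 per M on collagen IV, against 38.6, 33.2, 37.9 and 31.4 on uncoated plastic, in experiments 2 to 5. Ifit2 had 17.9, 16.4, 22.3 and 23.3 per M on collagen IV, against 14.2, 12.4, 16.4 and 20.5 on uncoated plastic. For both genes the ranges over experiments overlapped, while collagen IV was higher within each experiment. Members share libraries and are not replicates of a condition.

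The other coats gave smaller medians in 4T1 alone: 0.10 for collagen I (30 of 37 higher on average), 0.13 for fibronectin (32 of 37) and -0.06 for vitronectin (7 of 37), where 54%, 51.1% and 48.6% of all genes were higher. Without experiment 4 these medians were 0.02, 0.06 and -0.07, and that of collagen IV was 0.15 with 33 of 37 higher. Library tags differed from the uncoated library for collagen I in experiments 2, 3 and 5, for fibronectin in 2 and 5 and for vitronectin in 2. Tag and coat cannot be told apart in those. In the order of the members' mean log2 level, collagen IV was first of the 5 substrates in experiments 2, 3 and 4 and the fourth in experiment 5, and vitronectin was last in experiments 2, 3 and 4 and the third in experiment 5.

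**Figure D5:**
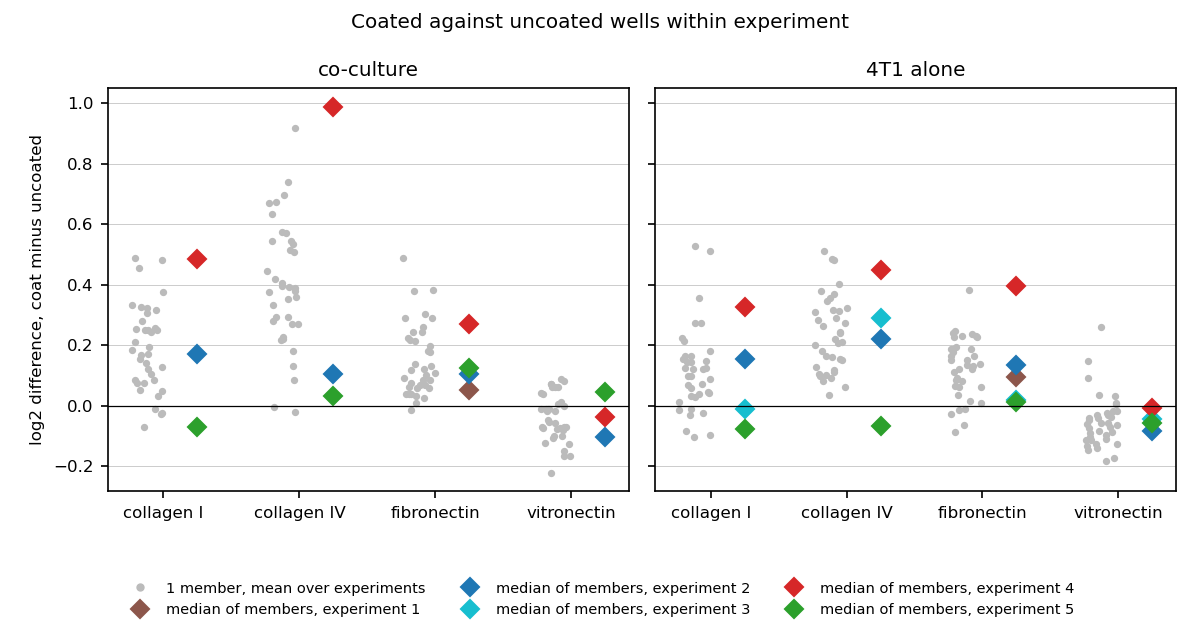
Log2 difference, coated minus uncoated wells of the same experiment, in co-culture (left) and 4T1 alone (right) for each coat. Grey points are the 37 members averaged over experiments and diamonds are the median of the members in 1 experiment; in 4T1 alone every grey point for collagen IV lies above 0, and the diamond of experiment 5 lies at -0.07.

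In co-culture limma and edgeR, with no term for experiment, called 0 members for each coat, against at most 0.0136% of all genes (collagen IV). At an unadjusted p under 0.05 there was 1 member for collagen I and 0 for the others, and the F test called 0 against 0.129%. The median over 3 experiments was 0.39 on collagen IV with 35 of 37 higher on average, where 56.5% of all genes were higher. The median was 0.99 in experiment 4, 0.11 in experiment 2 and 0.03 in experiment 5, and without experiment 4 it was 0.07 with 26 of 37 higher. In experiment 4 the uncoated co-culture has the library tag R2 and every coated one has none, so tag and coat cannot be told apart there. The same holds in experiment 5 for fibronectin (none) and vitronectin (R2) against uncoated (R3). The collagen IV co-culture of experiment 4 is the one with the most T cell marker RNA. Zbp1 had 1.83, 58.6 and 0.983 per M on collagen IV, against 1.43, 8.83 and 1.07 on uncoated plastic, in co-cultures of experiments 2, 4 and 5. Medians for collagen I, fibronectin and vitronectin were 0.19, 0.12 and -0.05, with 33, 36 and 11 of 37 higher, where 50.4%, 53% and 56.5% of all genes were higher. Without experiment 4 these medians were 0.06, 0.08 and -0.02, with 23, 30 and 17 of 37 higher.

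On each substrate taken alone, the T cell effect passed for 0 members on each of the 5 by limma and by edgeR, against 0% of all genes by limma, with 2 members at an unadjusted p under 0.05 on collagen IV, both lower, and 0 on the others. Whether a coat changed the T cell effect relative to uncoated plastic was tested by interaction terms, which passed for 0 members by limma and by edgeR, with 0 at an unadjusted p under 0.05 and 0% of all genes. These tests had no term for experiment, so they did not use the pairing of wells by experiment. With the experiment as a block, limma called 0 members on each substrate, and edgeR called 1 on collagen IV and 1 on vitronectin. The interaction terms passed for 0 members with the block as well. Each of these tests rests on 3 to 5 libraries per group drawn from experiments whose T cell effects differed, and a p that misses the threshold does not show that the substrates act alike.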

How the data were processed

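RNA-seq libraries (single-end reads of 75 bases, TruSeq RNA v2, which does not mark strand) were analysed from 1 deposited table. Per the submitters' processing notes the tools were STAR 2.6, featureCounts and edgeR 3.31.7 with build mm10; the annotation is not given in the sources used here. The deposited values are a signal, reads divided by a library size that the authors scaled, per M reads; from their steps whole reads were recovered for 100% of values (tolerance 0.01). A duplicate line and 1 gene with a cell that is no number were removed, and 19 symbols had been turned into dates. Recovered depth was 18.95 to 239.13 M reads (median 34.573), so that 3 reads correspond to 0.0124 to 0.158 per M, which covers counting error only.

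limma 3.58.1 in R 4.3.3 was run with a trend on log2(value + 1) over 14701 genes, with Benjamini-Hochberg adjustment over all of them and a threshold of 0.05. The test written in the design for raw counts was edgeR; as the values are normalised, edgeR 4.0.16 on the recovered reads was an alternative. One fit had the 10 groups as terms. Another had terms for experiment, substrate and T cells within each experiment, and 4T1 alone was fitted with experiment and substrate. The labels' replicate number names the experiment and pairs the samples: deviations from group means correlated with a median of 0.478 within an experiment (156 pairs, lowest 0.0409) and -0.131 between experiments (562 pairs). Alternatives were the experiment as a block, a pseudocount of 0.25, no low-value filter, quantile normalisation, scaling to carcinoma markers, and leaving out each library or experiment. By the rule for named genes, members past the threshold in a comparison are given with values, as are the members of each role with the highest levels in 4T1 alone; other members named near a threshold or for an overlap were chosen after their values were seen. Promoter windows came from RefSeq (GRCm38.p6). The members and lists were chosen with earlier results of these data known. The fits were tested on simulated data. Values of 1 gene of the pathway lists are not reported here.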

Additional observations from a re-analysis of the deposited data

Results flagged for a closer look

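Within the libraries of 1 experiment and condition, a library was set against the others of its group by Dixon's gap test, in 266 groups of 5. It stood apart in 22 of them. Chance flags about 1 in 20 independent groups, but the members share libraries and the libraries of a group differ in substrate. That rate therefore does not apply to this count. The collagen IV co-culture of experiment 4 accounted for 14. Its levels were 61.4 per M for Ifit2, 10.9 for Ifit3b, 8.93 for Usp18, 16 for Herc6, 150 for Trim25, 13.5 for Oas3 and 86.7 for Ddx58. They were 58.6 per M for Zbp1, 31.5 for Irf7, 74.9 for Irf9, 50.7 for Stat2, 128 for Parp14, 135 for Dtx3l and 107 for Samd9l. All 14 were above the other 4 co-cultures of that experiment, and its T cell markers summed to 5175.3 per M, against 1710.3 to 2052.3 in those 4; the part of the T cell RNA in these values was not tested.

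The collagen IV library of 4T1 alone in experiment 3 accounted for 7, all above the other 4 libraries. It had 0.619 per M of Usp18, 0.177 of Oas2, 22.8 of Parp14, 43.1 of Bst2, 1.24 of Ifi44 and 4.27 of Rtp4, and a mean log2 level of the members of 3.01, against 2.67 to 2.75 in the others. The fibronectin co-culture of experiment 5 had 2.15 per M of Zbp1, against 0.983 to 1.14 in the others.

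For 20 members the T cell effect differed between experiments 4 and 5 by limma, on the spread between wells (adjusted p 5.61e-09 to 0.0116). On the log2 scale, experiment 4 minus 5, it was 2.63 for Zbp1, 2.1 for Ifit3, 1.9 for Oas2, 1.87 for Irf7, 1.77 for Irf9, 1.57 for Samd9l, 1.5397 for Ifit3b, 1.44 for Usp18, 1.21 for Oas3 and 1.15 for Dtx3l. It was 1.06 for Xaf1, 0.995 for Stat2, 0.986 for Ddx60, 0.983 for Ifit1, 0.979 for Parp14, 0.90 for Ifit2, 0.74 for Herc6, 0.738 for Rtp4, 0.475 for Parp9 and 0.464 for Ddx58.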

How the results depend on the processing

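The count of 7 members past the threshold for T cells averaged over substrates became 17 with the replicate block, 15 with edgeR, 20 with edgeR and the block, 14 when scaled to the carcinoma markers and 2 with no low-value filter. Of all genes 25.2% passed in the main fit and 45.8% with the block. Scaled to the carcinoma markers, 5312 of 14701 genes passed, all higher. Shares of all genes for edgeR and for no low-value filter are not given here. Without experiment 1 the count of members was 4, without experiment 2 12, without experiment 3 1 (Oasl1, lower), without experiment 4 0, and with the block and without experiment 4 3. The last of these fits was added after seeing the data. Leaving out 1 library gave 0 to 14, and 26 of 40 libraries moved it by over 1.5 times: it was 0 without the collagen I or the vitronectin co-culture of experiment 4 and 14 without the collagen IV co-culture of experiment 3 or the vitronectin co-culture of experiment 2. It was 11 to 13 without the fibronectin, collagen I or collagen IV co-culture of experiment 2, and 1 to 4 without the other co-cultures of experiment 4 or any of 16 libraries of 4T1 alone (uncoated of experiments 1 to 3, collagen I of 2 to 5, collagen IV of 2 to 4, fibronectin of 1 to 3, vitronectin of 2 to 4). Oas1g turned to -0.168 under quantile normalisation. In experiment 4 the count lay between 23 and 26 when 1 library was left out. Scaled to the carcinoma markers, Isg15 turned to 0.194, Bst2 to 0.169 and Ifitm3 to 0.279, and Oasl1 was at -0.0879. Isg15 no longer passed without any 1 of 4 libraries (adjusted p 0.0548 to 0.1, limma), nor Rtp4 without any 1 of 5 (0.0545 to 0.252) or without experiment 2; Ifit1 and Rtp4 were lost under quantile normalisation. In experiment 1 the count of 0 became 1 with a pseudocount of 0.25, with edgeR or with quantile normalisation, 4 without experiment 4, and 0 to 3 with 1 library left out. In experiment 5 the count of 2 became 1 with no low-value filter or without experiment 1, 2 or 3, 0 when scaled to the carcinoma markers, and 0 to 3 with 1 library left out (16 libraries moved it). Per substrate, edgeR with the block called 1 member on collagen IV and 1 on vitronectin, and on fibronectin 1 was called without experiment 4, with or without the block. The F test over substrates in 4T1 alone called 1 with the block, and 4 with the block and without experiment 4. The F test of the T cell effect over experiments called 1 without experiment 4. The causes were not tested. DESeq2, planned for raw counts, was not run. The block changed no other call of a count. Levels under 0.158 per M rest on fewer than 3 reads in the shallowest library.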
